A study of Homo sapiens with 8 samples.

Results

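TGF-beta and BMP signalling was followed through 10 genes chosen by symbol: the ligands TGFB1, TGFB2, BMP4 and INHBA, the receptors TGFBR1 and TGFBR2, the intracellular proteins SMAD3 and SMAD7, and the secreted antagonists GREM1 and FST. All 10 had a row among the 56832 gene rows of each count table, and all 10 were among the 14611 genes that passed the filter on low counts. RNA was sequenced from Nthy-ORI, an epithelial cell line derived from normal human thyroid. The cells had first spent 24 h without hormone, in medium with charcoal-stripped serum, and every group shared this step. The 4 groups, of 2 libraries each, had received 10 nM T3, the active thyroid hormone, for 24 h, the NaOH vehicle for 24 h, T3 for 6 h, or the vehicle for 6 h. The study concerns genes regulated by the thyroid hormone receptor, and these libraries ask which transcripts differ with T3 at each time.

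TGF-beta and activin ligands bind a type II receptor, which recruits and phosphorylates a type I receptor. The type I receptor then phosphorylates SMAD2 and SMAD3, which enter the nucleus with SMAD4. BMP ligands use related receptors and act through SMAD1, SMAD5 and SMAD9. Secreted proteins such as gremlin and follistatin hold ligands away from their receptors. In the thyroid, TGF-beta and activin are known as inhibitors of follicular cell growth, and TGF-beta also drives matrix production.

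Counts in genes ran from 2517983 to 8201606 per library, so 3 counts, the floor used here for detection, stood for 0.366 to 1.19 CPM, that is, counts scaled to a library total of 1e6. Separate cultures are not stated for the 2 libraries of a group. The p-values therefore speak of the spread between these libraries alone, and that spread may be technical. KLF9, a textbook target of thyroid hormone receptors, had 2.79 and 3.35 CPM in the libraries labelled T3 and 20.8 and 31.4 CPM in those labelled vehicle at 24 h, and 13.4 and 14.1 CPM with T3 and 0.904 and 0.818 CPM with vehicle at 6 h. HR, another such target, was likewise lower in the libraries labelled T3 at 24 h (0.310 and 0.116 against 4.29 and 3.89 CPM) and higher with T3 at 6 h (116 and 102 against 68.4 and 58.5 CPM). Both genes thus went against the labels at 24 h, and every 24 h direction below refers to the libraries as labelled. The thyroid genes NKX2-1, TG and TSHR stayed under 1 CPM in all 8 libraries, and PAX8 had 108 and 117 CPM in T3 24 h, 114 and 155 CPM in vehicle 24 h, 4.34 and 4.02 CPM in T3 6 h, and 9.95 and 13.5 CPM in vehicle 6 h libraries. Libraries of different times lay 1.61 to 1.92 apart on the log2 scale (root mean square over genes), against 0.61 to 0.76 for different treatments at 1 time and 0.44 to 0.61 within a group. The time with hormone or vehicle and any other difference between the 24 h and 6 h sets of libraries cannot be told apart.

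The RefSeq windows of 250 bases before a transcript start are shown for GREM1, INHBA and TGFB2, which like FST, a gene of low counts, had 24 h levels far above their 6 h levels, and for TGFB1, which was lower in the libraries labelled T3 at 24 h. All are from GRCh38.p14 and read 5′ to 3′ on the strand of the gene. Capitals mark TATAAA, the CAGACA box known to bind SMAD3 and SMAD4 complexes, and AGGTCA, the hexamer bound by thyroid hormone receptors (written as TGACCT where it lies on the other strand). GREM1 is at chr15:32717754-32718003 on the plus strand, INHBA at chr7:41703091-41703340 on the minus strand, TGFB2 at chr1:218345086-218345335 on the plus strand and TGFB1 at chr19:41353923-41354172 on the minus strand.
GREM1: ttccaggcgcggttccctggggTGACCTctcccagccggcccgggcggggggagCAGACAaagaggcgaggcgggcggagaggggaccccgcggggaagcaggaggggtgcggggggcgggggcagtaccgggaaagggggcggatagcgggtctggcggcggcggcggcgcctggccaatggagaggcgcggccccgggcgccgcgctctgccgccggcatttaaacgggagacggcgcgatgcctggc
INHBA: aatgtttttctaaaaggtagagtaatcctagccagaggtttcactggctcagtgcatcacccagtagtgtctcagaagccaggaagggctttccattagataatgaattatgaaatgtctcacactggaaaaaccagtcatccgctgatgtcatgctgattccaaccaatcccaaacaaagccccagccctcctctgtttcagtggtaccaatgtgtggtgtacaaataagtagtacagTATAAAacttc
TGFB2: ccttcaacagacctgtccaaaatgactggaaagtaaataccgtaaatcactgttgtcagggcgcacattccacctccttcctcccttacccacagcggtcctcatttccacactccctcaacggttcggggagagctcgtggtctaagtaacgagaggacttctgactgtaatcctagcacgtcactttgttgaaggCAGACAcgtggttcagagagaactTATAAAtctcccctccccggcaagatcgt
TGFB1: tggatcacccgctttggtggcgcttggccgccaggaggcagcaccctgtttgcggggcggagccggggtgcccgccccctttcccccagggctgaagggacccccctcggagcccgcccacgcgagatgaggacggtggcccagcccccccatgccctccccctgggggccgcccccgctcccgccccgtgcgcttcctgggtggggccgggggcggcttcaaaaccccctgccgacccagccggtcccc

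The windows of TGFB1 and GREM1 were each 76.8% G or C, against 50.4% for TGFB2, 42.8% for INHBA and a median of 58% over all 35116 RefSeq windows. TATAAA stood 29 to 24 bases before the TGFB2 start and 11 to 6 bases before the INHBA start, and 10.7% of all windows held it on either strand. CAGACA, searched on both strands, was in 6 of the 27 windows of the 10 genes and in 13.6% of all windows. AGGTCA, also searched on both strands, was in 5 of the 27 windows, those of TGFBR1, SMAD3, SMAD7 and GREM1, and in 12.1% of all windows. The SMAD palindrome GTCTAGAC was in none of the 27 and in 0.182% of all windows, its shorter form GTCTAG was in 3 and 4.92%, and the AP-1 motif TGANTCA was in 2 and 6.57%. GTCTAG is contained in GTCTAGAC, the other motifs were counted separately, and which start the cells used was not tested.

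With T3 for 6 h, 2 of the 10 genes passed the threshold of 0.05 for the adjusted p, against 7.64% of the genes tested: TGFBR1 was higher and GREM1 lower. At 24 h, 4 of the 10 passed in the libraries labelled T3 against those labelled vehicle, against 13.3% of genes, with TGFBR1 and INHBA higher and TGFB1 and GREM1 lower. Between times, 8 of the 10 differed in the T3 libraries and 7 of the 10 in the vehicle libraries, where 70.4% and 64.5% of all genes did. The median log2 fold change of the 10 genes was -0.22 with T3 over vehicle at 6 h and -0.02 at 24 h, beside -0.02 and -0.01 for all genes tested. For 24 h over 6 h the members' medians were 0.56 with T3 and 0.24 with vehicle, beside 0.02 and 0.03 for all genes. With BMP4 set at its bound where a group had no counts, the medians of the 10 genes were the same.

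**Figure D1:**
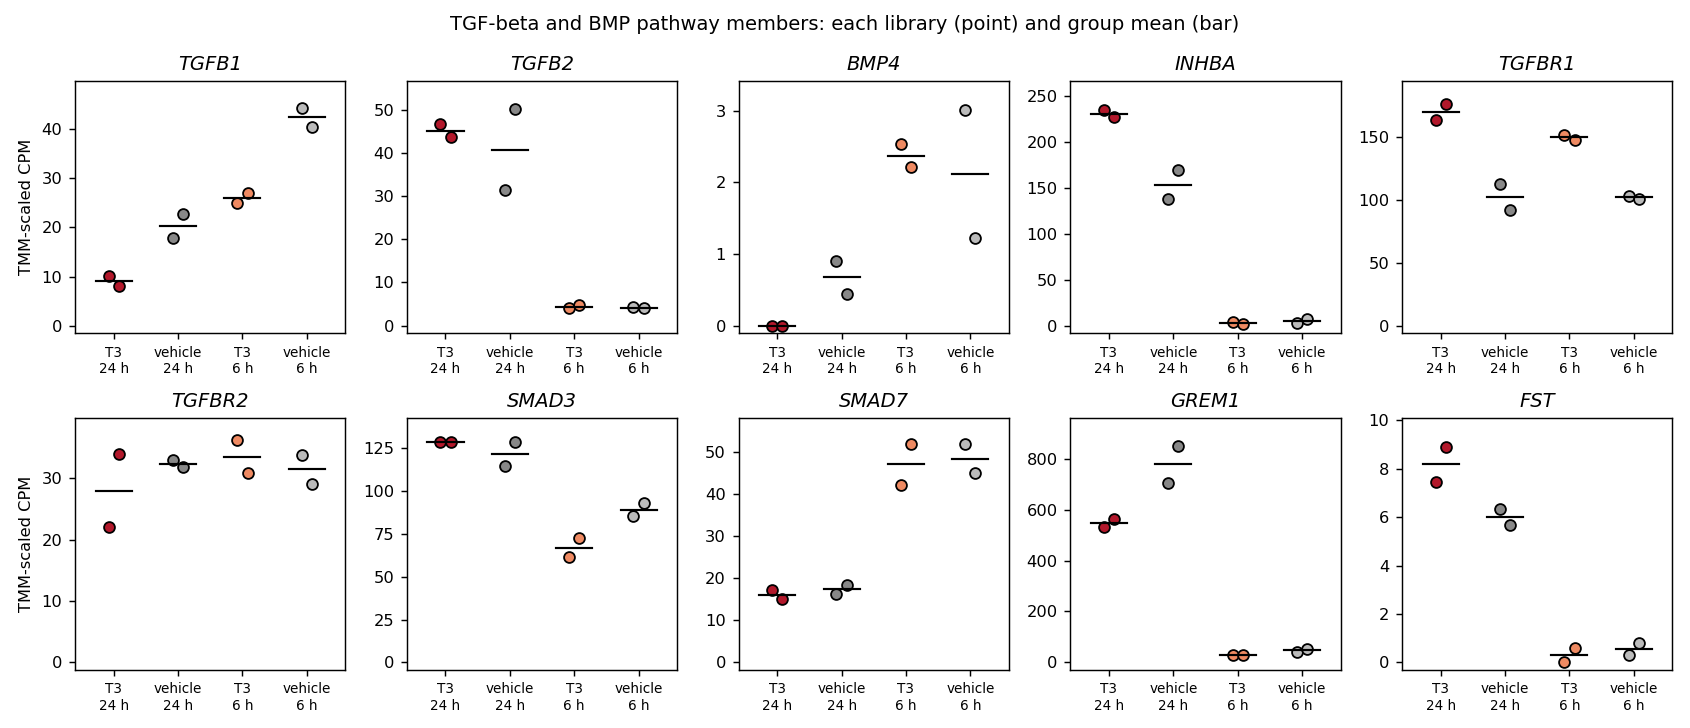
TMM-scaled CPM of the 10 genes (vertical axes, from 0, each gene with its own scale) in the 2 libraries of each group, from left to right T3 24 h, vehicle 24 h, T3 6 h and vehicle 6 h; points are libraries and bars their means. GREM1, INHBA, TGFB2 and FST sit high in the 24 h libraries and low in the 6 h libraries, SMAD7 and TGFB1 the other way round, and TGFBR1 is higher in the T3 libraries of both times.

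Scaled by the exon length of each gene, the order of levels differed between the times. In the 24 h libraries GREM1 was at the top, with 37.5 CPM per kb in those labelled T3 and 53.2 CPM per kb in those labelled vehicle, followed by INHBA at 27.8 and 18.5, TGFBR1 at 24.9 and 15 and SMAD3 at 14.2 and 13.4 CPM per kb. In the 6 h libraries TGFBR1 led, at 21.9 CPM per kb with T3 and 14.9 with vehicle, while GREM1 stood at 2.04 and 3.26 and INHBA at 0.339 and 0.582 CPM per kb. BMP4 was last at 24 h, with 0 and 0.219 CPM per kb, and FST was last at 6 h, with 0.102 and 0.189 CPM per kb. Neighbours whose libraries overlapped included SMAD7 with TGFB1 and TGFB1 with FST in the T3 24 h libraries, and TGFBR1 with SMAD3, TGFB2 with TGFBR2 and TGFBR2 with TGFB1 in the vehicle 24 h libraries. TGFB1 with SMAD3 and SMAD3 with TGFBR2 overlapped in the T3 6 h libraries. So did SMAD3 with SMAD7 and BMP4 with INHBA in the vehicle 6 h libraries, and TGFB2 with BMP4 in both groups of 6 h.

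Among the ligands, TGFB1 (chromosome 19, 41301587 to 41353911, minus strand, GRCh38), the main TGF-beta isoform of most tissues, had 10.2 and 7.98 CPM in T3 24 h, 17.9 and 22.7 CPM in vehicle 24 h, 25 and 27.0 CPM in T3 6 h, and 44.3 and 40.5 CPM in vehicle 6 h libraries. The T3 libraries lay below the vehicle libraries at each time, and the 24 h libraries below the 6 h libraries of the same treatment, with no overlap. At 24 h TGFB1 was lower in the libraries labelled T3, with a log2 fold change of -1.18 ± 0.23 (SE, adjusted p = 0.00402 by edgeR). At 6 h the log2 fold change was -0.70 ± 0.22 (SE, adjusted p = 0.0562 by edgeR), which missed the threshold, although it passed when only the 6 h libraries were fitted (edgeR adjusted p = 0.00171). That fit called 2898 of 12234 genes, against 1117 of 14611 with all libraries. Over time TGFB1 fell by 1.53 ± 0.23 on the log2 scale with T3 (SE, adjusted p = 1.41e-05 by edgeR) and by 1.05 ± 0.21 with vehicle (SE, adjusted p = 0.000377 by edgeR).

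The TGFB1 transcript is rich in G and C, at 63.45%, and in every comparison the fold changes of all genes ran with GC content. At 24 h the median log2 fold change of T3 over vehicle was 0.33 in the fifth of genes with the lowest GC content and -0.53 in the fifth with the highest, and at 6 h these medians were 0.30 and -0.31. For 24 h over 6 h the same medians were 0.73 and -1.20 with T3, and 0.72 and -0.96 with vehicle. With the GC and length trend removed, TGFB1 had a log2 fold change of -0.60 at 24 h (edgeR adjusted p = 0.204), -0.43 at 6 h (edgeR adjusted p = 0.308), -0.03 for 24 h over 6 h with T3 (edgeR adjusted p = 0.916) and 0.13 with vehicle (edgeR adjusted p = 0.600). None of these 4 values of TGFB1 passed the threshold. HNRNPUL1, on the opposite strand, shares 6.64% of the exon bases of TGFB1 and had 849 to 1744 counts per library, and the strand setting of the counting is not given in the sources used here.

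TGFB2 (chromosome 1, 218346235 to 218444619, plus strand) encodes an isoform that needs the co-receptor betaglycan for strong binding. It had 46.7 and 43.6 CPM in T3 24 h, 31.4 and 50.1 CPM in vehicle 24 h, 3.98 and 4.83 CPM in T3 6 h, and 4.22 and 4.09 CPM in vehicle 6 h libraries. Every 24 h library lay above every 6 h library, while the T3 and vehicle libraries overlapped at each time. TGFB2 rose with time by a log2 fold change of 3.32 ± 0.28 with T3 (SE, adjusted p = 1.56e-08 by edgeR) and 3.30 ± 0.31 with vehicle (SE, adjusted p = 7.71e-08 by edgeR). For T3 against vehicle the 95% interval of the log2 fold change was -0.30 to 0.57 at 24 h and -0.77 to 1.00 at 6 h. TGFB2-OT1, which overlaps 26.6% of the exon bases of TGFB2 on the same strand, had 0 counts in every library.

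INHBA (chromosome 7, 41667168 to 41705834, minus strand) encodes the beta A subunit, of which activin A is a dimer. It had 235 and 227 CPM in T3 24 h, 138 and 169 CPM in vehicle 24 h, 3.62 and 2.01 CPM in T3 6 h, and 2.71 and 6.96 CPM in vehicle 6 h libraries. The 6 h values rested on 10 and 10 counts with T3 and 9 and 17 counts with vehicle. Every 24 h library lay far above every 6 h library, and at 24 h the libraries labelled T3 lay above those labelled vehicle, while at 6 h the groups overlapped. The rise with time was a log2 fold change of 6.46 ± 0.26 with T3 (SE, adjusted p = 2.34e-12 by edgeR) and 5.07 ± 0.26 with vehicle (SE, adjusted p = 5.15e-11 by edgeR). At 24 h INHBA was higher in the libraries labelled T3 by a log2 fold change of 0.59 ± 0.16 (SE, adjusted p = 0.0234 by edgeR), and at 6 h its log2 fold change was -0.80 ± 0.47 (SE, adjusted p = 0.332 by edgeR). The 24 h call was lost with GC and length correction (0.28, edgeR adjusted p = 0.311) and also when vehicle replicate 1 or either T3 library of 24 h was left out (edgeR adjusted p of up to 0.117).

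BMP4 (chromosome 14, 53949736 to 53958761, minus strand), the only BMP ligand of the 10, was near the detection floor. Its counts were 0 and 0 in T3 24 h, 4 and 3 in vehicle 24 h, 7 and 11 in T3 6 h, and 10 and 3 in vehicle 6 h libraries. With T3 it was at least 11.7-fold lower at 24 h than at 6 h, taking the floor as 3 counts over the group (edgeR adjusted p = 0.000418). At 24 h the libraries labelled T3 were at least 3.17-fold lower than those labelled vehicle, which did not pass the threshold (edgeR adjusted p = 0.0590). With vehicle the ratio of 24 h over 6 h was 0.279, with a 95% counting interval of 0.0943 to 0.753 that covers counting error only (edgeR adjusted p = 0.0948).

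The other ligands of the family were read from a list of 29 genes, of which 11 were tested. The counts of this and the following lists stand beside called shares of all genes of 7.64% for T3 at 6 h, 13.3% for T3 at 24 h, and 70.4% with T3 and 64.5% with vehicle over time. BMP2 averaged 15.1 ± 3.83 CPM in T3 24 h, 11.7 ± 0.329 CPM in vehicle 24 h, 181 ± 5.15 CPM in T3 6 h and 159 ± 12.0 CPM in vehicle 6 h libraries (SD, n = 2 each). BMP6, like BMP2 a ligand of SMAD1, SMAD5 and SMAD9 signalling, had 0.620 and 0 CPM in T3 24 h, 0 and 0 CPM in vehicle 24 h, 87.6 and 94.7 CPM in T3 6 h, and 75.7 and 70.8 CPM in vehicle 6 h libraries. BMP2 was lower at 24 h by log2 fold changes of -3.56 with T3 (edgeR adjusted p = 9.03e-12) and -3.77 with vehicle (edgeR adjusted p = 1.85e-11). BMP6 was at least 273-fold lower with vehicle (edgeR adjusted p = 1.19e-10). GDF6 moved the other way, with a ratio of 38.4 with T3 (counting interval 10.5 to 320) and 9.23 with vehicle (3.81 to 29.1). Its 6 h levels rested on 2 counts over the T3 group, under the floor of 3, and 5 counts over the vehicle group. After 6 h of T3, 2 of the 11 passed, both lower. GDF15, a stress-induced ligand, had a log2 fold change of -1.64 (edgeR adjusted p = 0.000230). INHBE, the activin E subunit gene, had -2.52 (edgeR adjusted p = 0.000581). At 24 h 1 of the 11 passed, GDF15, which was higher in the libraries labelled T3 by 0.84 (edgeR adjusted p = 0.0195).

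Of the receptors, TGFBR1 (chromosome 9, 99104038 to 99154192, plus strand), the type I receptor kinase for TGF-beta, had 164 and 176 CPM in T3 24 h, 113 and 92.1 CPM in vehicle 24 h, 152 and 148 CPM in T3 6 h, and 103 and 101 CPM in vehicle 6 h libraries. All 4 T3 libraries lay above all 4 vehicle libraries. T3 over vehicle was a log2 fold change of 0.73 ± 0.13 at 24 h, as labelled (SE, adjusted p = 0.00227 by edgeR), and 0.55 ± 0.14 at 6 h (SE, adjusted p = 0.0209 by edgeR). With the 24 h libraries as labelled, 1.12% of genes, TGFBR1 among them, were called higher at both times, and 0.089% were called higher at 6 h and lower at 24 h. Between times it did not pass, with log2 fold changes of 0.18 with T3 (edgeR adjusted p = 0.211) and 0.00 with vehicle (edgeR adjusted p = 0.992).

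TGFBR1 has a transcript of low GC content, 38.95%, which is the end of the range where T3 libraries were higher across genes. With GC and length correction its T3 log2 fold changes were 0.41 at 24 h (edgeR adjusted p = 0.134) and 0.25 at 6 h (edgeR adjusted p = 0.380), neither past the threshold. The same correction turned the time comparison into a fall of 0.61 with T3 (edgeR adjusted p = 0.000718) and of 0.77 with vehicle (edgeR adjusted p = 0.000215). The 6 h call was also lost whichever 6 h library was left out (log2 fold changes of 0.55 to 0.58, edgeR adjusted p between 0.0707 and 0.181), while that of 24 h held whichever library was left out.

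TGFBR2 (chromosome 3, 30606502 to 30694142, plus strand), the type II receptor that binds ligand first, had 22.0 and 33.9 CPM in T3 24 h, 33.0 and 31.8 CPM in vehicle 24 h, 36.2 and 30.8 CPM in T3 6 h, and 33.8 and 29.1 CPM in vehicle 6 h libraries. The groups overlapped in every comparison, and T3 24 h replicate 1 was the lowest library. No comparison passed, and the 95% intervals for T3 over vehicle were -0.64 to 0.23 at 24 h and -0.41 to 0.55 at 6 h on the log2 scale. For 24 h over 6 h they were -0.69 to 0.21 with T3 and -0.43 to 0.51 with vehicle.

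The list of 12 other receptors and co-receptors had 9 tested genes, and all 9 differed between times under each treatment, where 70.4% of all genes with T3 and 64.5% with vehicle did, 5 higher and 4 lower at 24 h. BMPR2, the type II receptor for BMPs, averaged 293 ± 14.3 CPM in T3 24 h, 199 ± 24.2 CPM in vehicle 24 h, 45.2 ± 0.953 CPM in T3 6 h and 40.5 ± 10.4 CPM in vehicle 6 h libraries (SD, n = 2 each). ACVR1, a type I receptor for BMPs and activins, was the gene of the list that passed with T3 for 6 h, lower by a log2 fold change of -0.99 (edgeR adjusted p = 0.0399). At 24 h BMPR1A and BMPR2 were higher and the co-receptor gene ENG lower in the libraries labelled T3, at 0.57, 0.55 and -0.74 on the log2 scale (edgeR adjusted p = 0.0151, 0.0165 and 0.0419). ENG lost its call in 14 of the 15 alternatives (edgeR adjusted p of up to 0.817).

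SMAD3 (chromosome 15, 67063763 to 67195195, plus strand), which carries the TGF-beta and activin signal to the nucleus, had 129 and 129 CPM in T3 24 h, 115 and 129 CPM in vehicle 24 h, 61.5 and 72.6 CPM in T3 6 h, and 85.3 and 93.3 CPM in vehicle 6 h libraries. The 24 h libraries were all above the 6 h libraries, and at 6 h the T3 libraries were below the vehicle libraries. SMAD3 rose with time by a log2 fold change of 0.94 ± 0.14 with T3 (SE, adjusted p = 9.63e-06 by edgeR) and 0.45 ± 0.14 with vehicle (SE, adjusted p = 0.00808 by edgeR). For T3 over vehicle its log2 fold change was 0.08 at 24 h (95% interval -0.19 to 0.36) and -0.40 ± 0.14 at 6 h (SE, adjusted p = 0.0991 by edgeR). The 6 h value passed when only the 6 h libraries were fitted (edgeR adjusted p = 0.0236), a fit that called 2898 of 12234 genes. With GC and length correction it was -0.32 and did not pass (edgeR adjusted p = 0.209). Without vehicle 6 h replicate 1 the rise with vehicle was 0.39 and did not pass (edgeR adjusted p = 0.0785).

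SMAD7 (chromosome 18, 48919853 to 48952052, minus strand) is the inhibitory SMAD that blocks type I receptors and is itself induced by TGF-beta and BMP signals. It had 17.2 and 15 CPM in T3 24 h, 16.3 and 18.5 CPM in vehicle 24 h, 42.3 and 52.1 CPM in T3 6 h, and 52.1 and 45.0 CPM in vehicle 6 h libraries. All 24 h libraries were below all 6 h libraries, and T3 and vehicle overlapped at both times. SMAD7 fell with time by 1.57 ± 0.20 on the log2 scale with T3 (SE, adjusted p = 1.60e-06 by edgeR) and by 1.48 ± 0.20 with vehicle (SE, adjusted p = 6.45e-06 by edgeR). Its transcript has 58.67% GC. With GC and length correction the time values were smaller, at -0.76 with T3 (edgeR adjusted p = 0.00150) and -0.85 with vehicle (edgeR adjusted p = 0.00112). The 95% intervals for T3 over vehicle were -0.55 to 0.31 at 24 h and -0.44 to 0.37 at 6 h.

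The other 19 SMADs and intracellular regulators were all tested. SMAD6, the inhibitory SMAD of the BMP branch, averaged 6.36 ± 0.652 CPM in T3 24 h, 7.88 ± 0.275 CPM in vehicle 24 h, 126 ± 6.25 CPM in T3 6 h and 133 ± 26.8 CPM in vehicle 6 h libraries (SD, n = 2 each), and so was lower at 24 h as SMAD7 was. Over time 9 of the 19 were higher and 6 lower with T3, and 9 higher and 8 lower with vehicle. After 6 h of T3, 2 of them passed, both higher. They were SKIL, a corepressor of SMAD complexes (0.74, edgeR adjusted p = 0.00706), and SMAD5 (0.47, edgeR adjusted p = 0.0319). At 24 h 6 were higher in the libraries labelled T3 and none of the 19 was called lower, SMAD2, SMAD4, SMAD5 and SKIL among the 6, at log2 fold changes of 0.53 to 0.72. None of the 19 was called at 24 h once GC and length were corrected, and these 4 transcripts have GC contents of 33.39% to 41.13%.

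**Figure D2:**
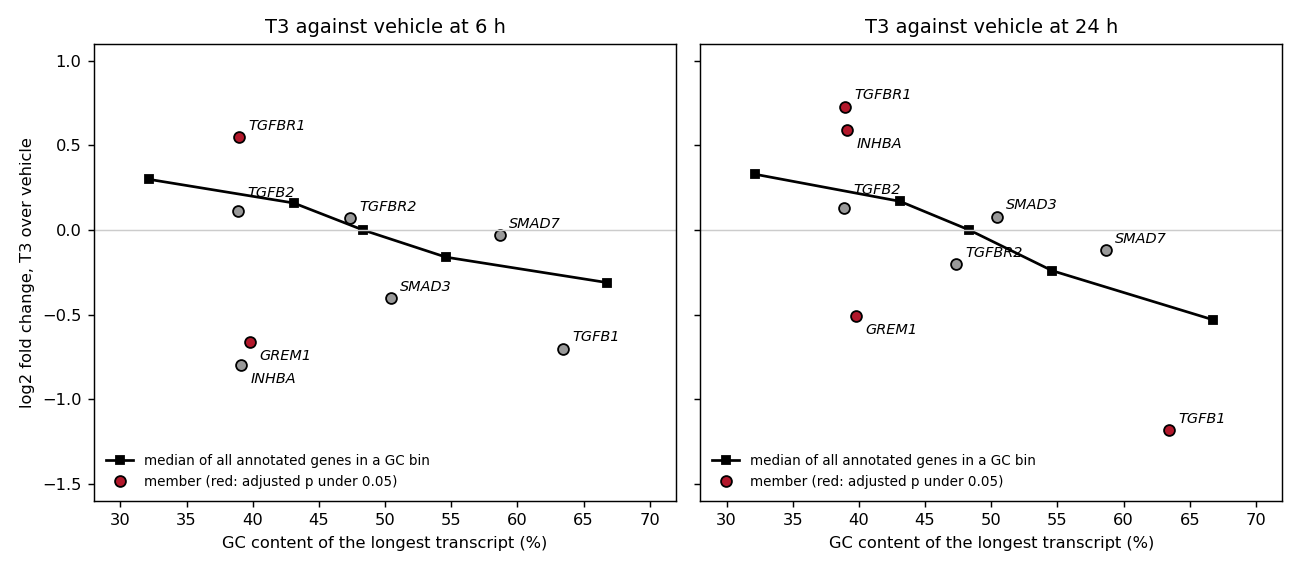
Log2 fold change of T3 over vehicle (vertical axis) against the GC content of the transcript in percent (horizontal axis) at 6 h and at 24 h, for 8 members (circles, red where the adjusted p is under 0.05) and as the median of all annotated genes in 5 bins of GC content (squares and line). TGFBR1 lies above the falling line and TGFB1 below it on the same slope, whereas GREM1 lies below it at 39.81% GC, where the median gene was higher.

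GREM1 (chromosome 15, 32717974 to 32745107, plus strand) encodes gremlin, which binds BMP2, BMP4 and BMP7. It had 531 and 565 CPM in T3 24 h, 706 and 849 CPM in vehicle 24 h, 29 and 30.6 CPM in T3 6 h, and 42.5 and 52.8 CPM in vehicle 6 h libraries. The T3 libraries were below the vehicle libraries at both times, and all 24 h libraries were far above all 6 h libraries. T3 over vehicle was a log2 fold change of -0.51 ± 0.12 at 24 h, as labelled (SE, adjusted p = 0.0138 by edgeR), and -0.66 ± 0.16 at 6 h (SE, adjusted p = 0.0204 by edgeR), and as labelled 0.808% of genes were called lower at both times and 0.103% lower at 6 h and higher at 24 h. With time GREM1 rose by 4.20 ± 0.15 with T3 (SE, adjusted p = 3.70e-13 by edgeR) and 4.04 ± 0.15 with vehicle (SE, adjusted p = 8.13e-13 by edgeR) on the log2 scale.

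GREM1 was the only member called for T3 at either time with GC and length correction, with log2 fold changes of -0.79 at 24 h (edgeR adjusted p = 0.000674) and -0.88 at 6 h (edgeR adjusted p = 0.00118). Leaving out 1 library was harder on it. The 6 h call was lost whichever 6 h library was left out (log2 fold changes of -0.82 to -0.47, edgeR adjusted p of up to 0.203). The 24 h call was lost when vehicle replicate 2 or T3 replicate 1 of that time was left out (edgeR adjusted p = 0.0592 and 0.0631).

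Other measures moved with GREM1 at 6 h. A set of 46 genes, chosen after these values were seen, had 50 CPM or more at 24 h and a level at 6 h that was lower by 16-fold or more. Their median 6 h level as a share of the 24 h level was 1.95% and 1.87% in the T3 6 h libraries and 4.66% and 6.70% in the vehicle 6 h libraries. For GREM1 itself the shares were 4.37% and 4.61% with T3 and 6.41% and 7.96% with vehicle. The part of this difference in the 6 h result was not tested. The summed level of 8 fibroblast and mesenchymal markers was 630 to 726 CPM in T3 24 h, 1149 to 1254 CPM in vehicle 24 h, 114 to 120 CPM in T3 6 h and 215 CPM in vehicle 6 h libraries. Nearly all of that sum was COL1A1 (656 ± 67.1, 1174 ± 73.3, 101 ± 4.33 and 189 ± 0.967 CPM, SD, n = 2 each, in the same order of groups), while COL3A1, LUM, PDGFRA and THY1 were under 1 CPM in all 8 libraries. DCN was at 0 in all 24 h libraries and at 1.81 to 3.62 CPM in the 6 h libraries, the opposite of GREM1. PDGFRB had 21.5 and 20.1 CPM in T3 24 h, 25.3 and 24.4 CPM in vehicle 24 h, 14.5 and 13.3 CPM in T3 6 h, and 22.6 and 22.1 CPM in vehicle 6 h libraries, and COL1A2 reached at most 2.24 CPM. In bulk samples, fewer cells of a type and less RNA per cell cannot be told apart.

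FST (chromosome 5, 53480409 to 53487134, plus strand) encodes follistatin, which binds activins with high affinity. It had 48 and 77 counts in T3 24 h, 28 and 38 counts in vehicle 24 h, 0 and 3 counts in T3 6 h, and 1 and 2 counts in vehicle 6 h libraries. At 6 h both groups were at the floor of 3 counts, so no fold between them is given. The 24 h level was above the 6 h level by a ratio of 21.3 with T3 (counting interval 7.14 to 105, edgeR adjusted p = 2.18e-05) and 11.4 with vehicle (3.74 to 56.7, edgeR adjusted p = 0.000471). Labelled T3 over labelled vehicle at 24 h was 0.45 on the log2 scale, with a 95% interval of -0.44 to 1.35. FST thus stood high in the same libraries as INHBA, whose product it binds.

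Of 14 other antagonists, 6 were tested, and all 6 differed between times under each treatment, beside the same 70.4% and 64.5% of all genes, 4 higher and 2 lower at 24 h. FSTL3, a relative of follistatin that also binds activins, ran opposite to FST: it averaged 16.7 ± 3.15 CPM in T3 24 h, 23.1 ± 2.83 CPM in vehicle 24 h, 333 ± 23.1 CPM in T3 6 h and 353 ± 37.9 CPM in vehicle 6 h libraries (SD, n = 2 each). For T3 at 6 h edgeR called 0 of the 6, 1 had an unadjusted p under 0.05, and DESeq2 called 0. At 24 h TWSG1, a modulator of BMP binding, was higher in the libraries labelled T3 by a log2 fold change of 0.77 (edgeR adjusted p = 0.00305).

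**Figure D3:**
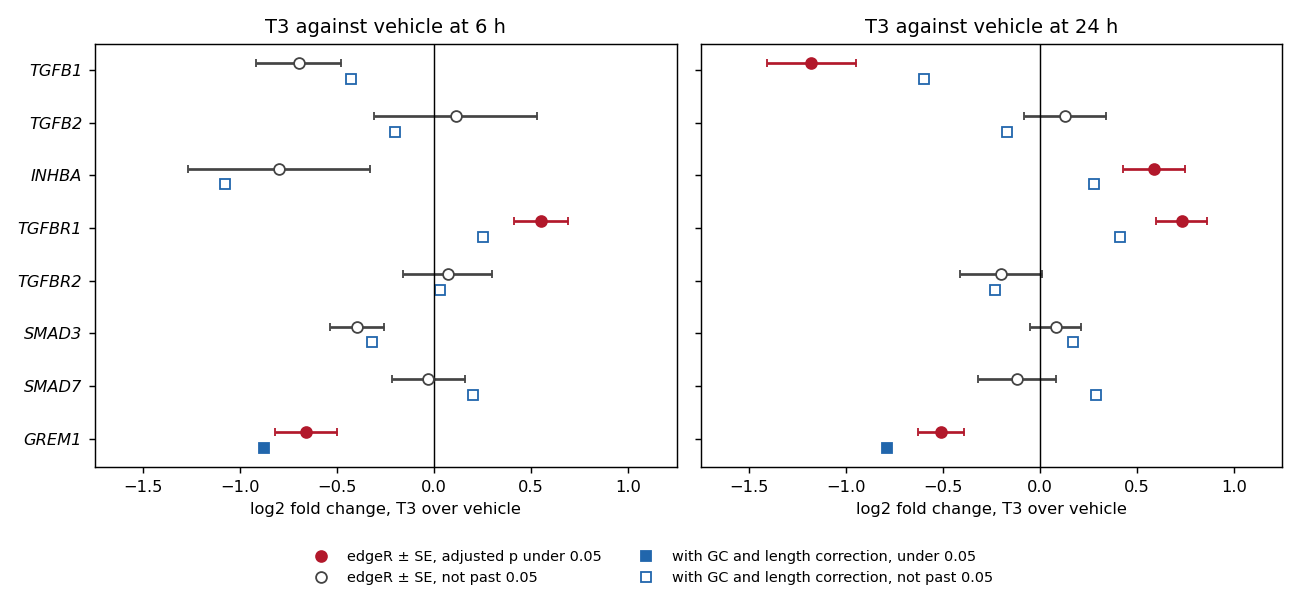
Log2 fold change of T3 over vehicle (horizontal axes) at 6 h and 24 h for the 8 members with enough counts; circles are the edgeR estimates with their standard errors, red where the adjusted p is under 0.05, and blue squares the estimates with GC and length correction, filled where under 0.05. GREM1 has a filled square at both times, whereas the squares of TGFBR1, TGFB1 and INHBA lie closer to 0 than their called circles and are open.

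The difference between the T3 responses at 24 h and 6 h was called by edgeR for 0 of the 10 members, against 1.84% of genes, and DESeq2 also called 0. An unadjusted p under 0.05 was reached by 3 members. INHBA had a difference of 1.38 on the log2 scale (95% interval 0.34 to 2.43, edgeR adjusted p = 0.166), and SMAD3 a difference of 0.48 (0.08 to 0.89, edgeR adjusted p = 0.219). BMP4, at 0 counts in the T3 24 h libraries, had an edgeR adjusted p = 0.183. For TGFBR1 the difference was 0.18 (-0.21 to 0.58) and for GREM1 0.16 (-0.27 to 0.58). These differences take the 24 h libraries as labelled, and would not hold if T3 and vehicle of that time were exchanged.

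**Figure D4:**
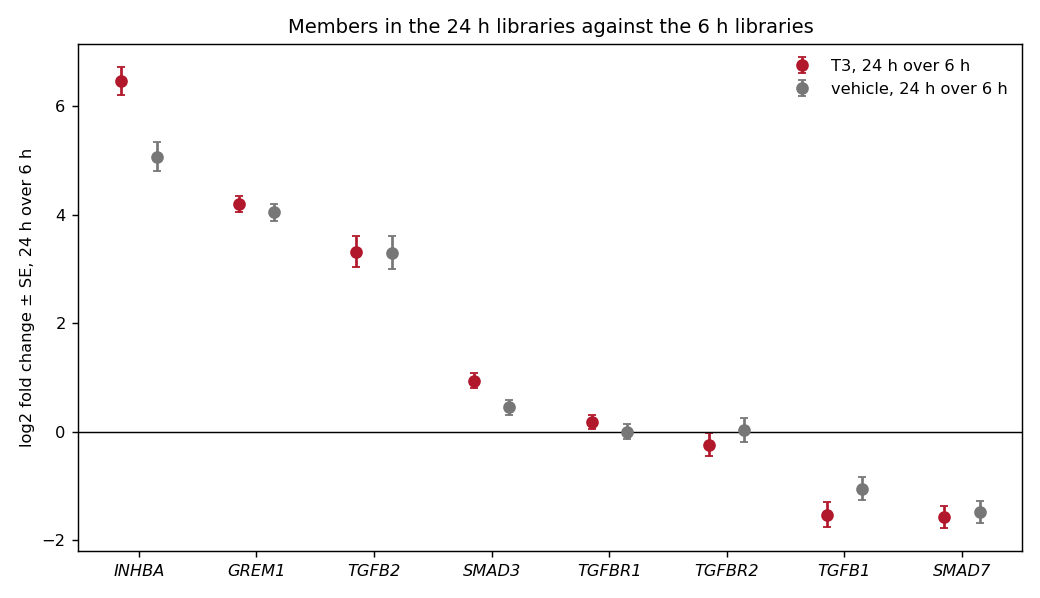
Log2 fold change of the 24 h over the 6 h libraries with standard error (vertical axis) for 8 members, in T3 libraries (red, left of each pair) and vehicle libraries (grey). INHBA, GREM1 and TGFB2 are above 3 on the log2 scale under both treatments, TGFBR1 and TGFBR2 lie near 0, and TGFB1 and SMAD7 are below -1 under both.

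Genes that store and release TGF-beta were read from a list of 16, of which 12 were tested. FBN2, a fibrillin, averaged 8.51 ± 2.22 CPM in T3 24 h, 8.07 ± 0.415 CPM in vehicle 24 h, 153 ± 12.8 CPM in T3 6 h and 225 ± 17.8 CPM in vehicle 6 h libraries, while FBN1, its relative, averaged 181 ± 20.3, 165 ± 21.8, 30.1 ± 0.635 and 36.0 ± 0.617 CPM in the same groups (SD, n = 2 each). TLL1, a protease of the BMP1 family, had 0 and 0 CPM in T3 24 h against 127 and 107 CPM in T3 6 h libraries, at least 574-fold lower (edgeR adjusted p = 1.06e-12). Over time 5 of the 12 were higher and 5 lower with T3, and 6 higher and 4 lower with vehicle. For T3 at 6 h 4 passed. THBS1, an activator of latent TGF-beta, and TLL1 were higher, at 0.58 and 0.68 on the log2 scale (edgeR adjusted p = 0.0102 and 0.0264). LTBP2 and FBN2 were lower, at -1.46 and -0.56 (edgeR adjusted p = 0.0258 and 0.0266). At 24 h 2 were higher and 3 lower in the libraries labelled T3, with ITGAV, an integrin chain that activates latent TGF-beta, at 0.61 (edgeR adjusted p = 0.00311) and LTBP4 at -0.72 (edgeR adjusted p = 0.0164). Neither gene was called at 24 h with GC and length correction. Over the 15 alternatives ITGAV was at 0.26 to 0.63 and LTBP4 at -0.95 to -0.02.

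Of 23 genes known to respond to TGF-beta, 20 were tested, and 13 were higher and 3 lower at 24 h with T3, and 11 higher and 4 lower with vehicle. FN1, which encodes fibronectin, averaged 7523 ± 53.1 CPM in T3 24 h, 8434 ± 808 CPM in vehicle 24 h, 127 ± 8.01 CPM in T3 6 h and 551 ± 134 CPM in vehicle 6 h libraries (SD, n = 2 each). In the 6 h comparison 4 passed, all lower with T3: FN1 by a log2 fold change of -2.12, TGM2 by -1.70, TGFBI by -0.98 and COL1A1 by -0.90 (edgeR adjusted p = 7.04e-07, 0.0179, 0.000106 and 0.000672). All 4 also stood higher in the 24 h libraries than in the 6 h libraries, as GREM1 did, and the part of the shares given beside GREM1 in these results was not tested either. At 24 h 2 were higher in the libraries labelled T3, CDKN1A among them (0.74, edgeR adjusted p = 0.00501), and 2 lower, COL1A1 (-0.84, edgeR adjusted p = 0.000703) and JUNB (-0.74, edgeR adjusted p = 0.0266). Neither COL1A1 nor JUNB was called at 24 h with GC and length correction. Over the 15 alternatives COL1A1 was at -0.96 to -0.35 and JUNB at -0.84 to -0.09.

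Of 12 genes known to respond to BMP, 7 were tested, with 1 higher and 5 lower at 24 h with T3 and 2 higher and 4 lower with vehicle. ID1 averaged 15 ± 0.739 CPM in T3 24 h, 16.4 ± 1.68 CPM in vehicle 24 h, 65.4 ± 2.47 CPM in T3 6 h and 71.9 ± 9.12 CPM in vehicle 6 h libraries, and ID3 15 ± 0.657, 24.2 ± 4.16, 164 ± 5.81 and 145 ± 16.6 CPM in the same groups (SD, n = 2 each). Both encode inhibitors of basic helix-loop-helix factors that BMP signals induce, and both were lower at 24 h under each treatment. Over the 15 alternatives the time value of ID1 was -2.19 to -0.69 with T3 and -2.25 to -0.96 with vehicle on the log2 scale. That of ID3 was -3.50 to -2.26 and -2.75 to -1.66. RUNX2, an osteoblast factor, was higher at 24 h by 5.14 with T3 (edgeR adjusted p = 1.91e-10) and 4.74 with vehicle (edgeR adjusted p = 5.90e-10). For T3 at 6 h edgeR called 0 of the 7, with 1 at an unadjusted p under 0.05 and 0 called by DESeq2. At 24 h 2 were lower in the libraries labelled T3, ATOH8 (-1.23, edgeR adjusted p = 0.0161) and ID3 (-0.67, edgeR adjusted p = 0.0191).

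Over the 7 lists together, 84 of 125 genes were tested. Of these, 4 were higher and 9 lower with T3 for 6 h (15.5% called, against 7.64% of all genes). At 24 h 14 were higher and 8 lower in the libraries labelled T3 (26.2% called, against 13.3% of all genes). With GC and length correction these counts were 1 higher and 10 lower at 6 h, and 3 higher and 0 lower at 24 h. Of all genes, the same fit called 459 of 12579 at 6 h and 169 of 12579 at 24 h. Of the 13 called at 6 h, FN1, TGFBI, COL1A1, GDF15 and INHBE were called in every alternative run, and each of the others lost its call when some 6 h library was left out. Of the 22 called at 24 h, COL1A1, ITGAV, SMAD2, SMAD4, SMAD5 and TWSG1 were called whichever library was left out. None of these 6 passed with the GC and length correction. Over time 40 were higher and 29 lower with T3, and 39 higher and 30 lower with vehicle, 82.1% under each, against 70.4% of all genes with T3 and 64.5% with vehicle.

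**Figure D5:**
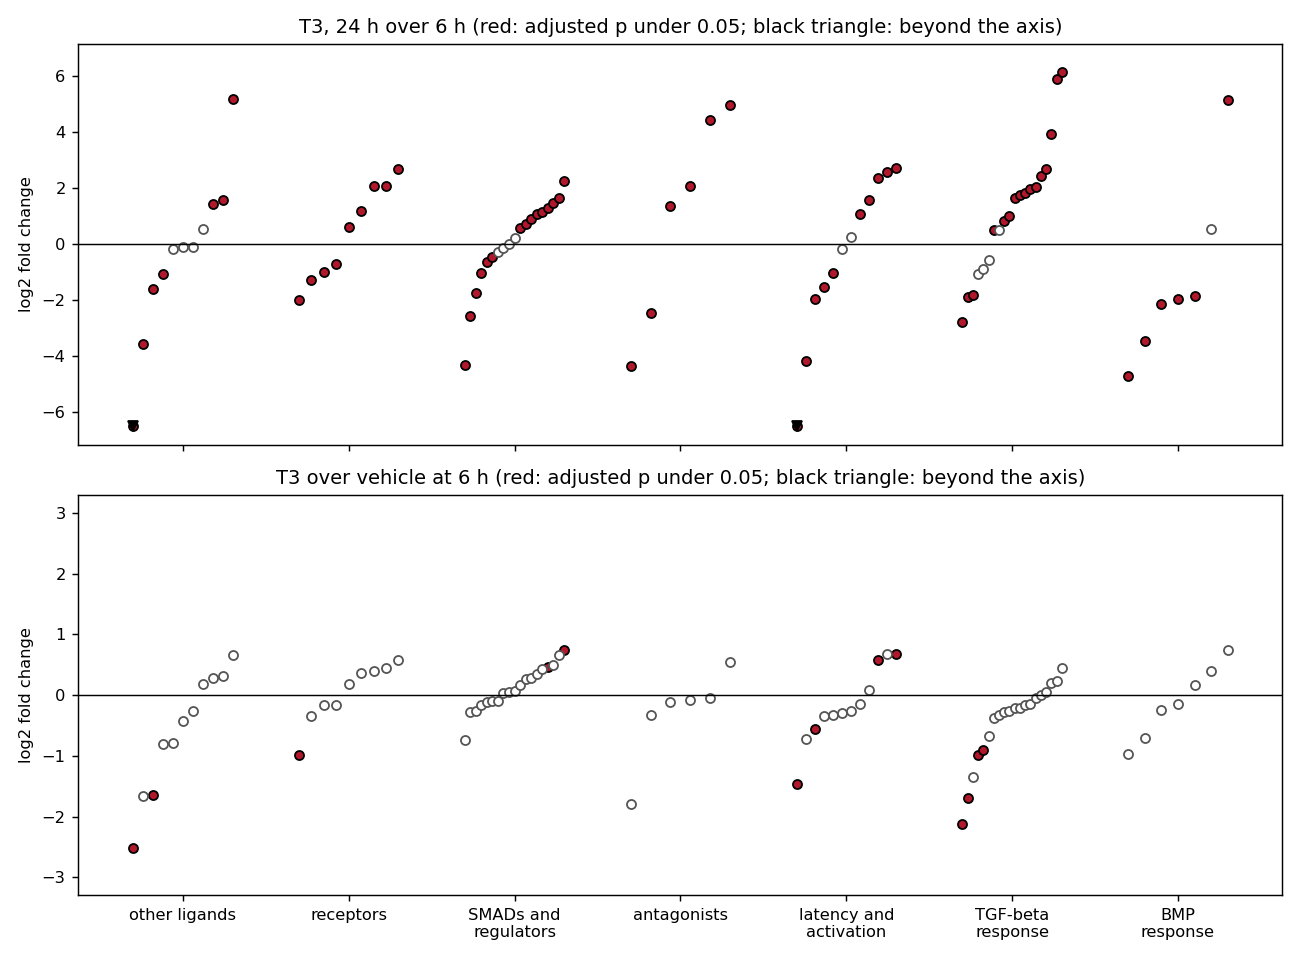
Fitted log2 fold change (vertical axes) of the tested genes of the 7 wider lists, ordered by value within each list, for T3 24 h over T3 6 h (upper panel) and T3 over vehicle at 6 h (lower panel); red circles have an adjusted p under 0.05, and black triangles mark BMP6 and TLL1, which lie beyond the axis. Most circles of the upper panel are red in both directions, whereas 13 of 84 are red in the lower panel, with FN1 and INHBE the lowest.

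The genes whose pattern over the 8 libraries was closest to that of each member were found among the tested genes with at least 10 CPM on average, by the root mean square difference of centred log2 CPM. A prior count of 2 was added before the log was taken. The closest match of all was ABCB10 for TGFBR1, at 0.06, with 55.7 CPM in T3 24 h, 32.0 CPM in vehicle 24 h, 47.9 CPM in T3 6 h and 31.8 CPM in vehicle 6 h libraries. ERCC2 lay equally close to SMAD7, at 0.06. VCAN, which encodes the matrix proteoglycan versican, was nearest to INHBA, at 0.19, with 464, 331, 5.13 and 10.9 CPM in the same order of groups. FHOD3 and TNC, TNC encoding tenascin-C, were nearest to GREM1, both at 0.23. SEPT11 was nearest to TGFB2 at 0.18, HPS4 to SMAD3 at 0.07, and SEMA6B and HIST1H1E to TGFB1, both at 0.15. BUD13 and COG1 were nearest to TGFBR2 at 0.08, KDM7A and TSPAN2 to FST at 0.24 and AMPD2 to BMP4 at 0.22. BMP4 and FST have few counts, where the prior count damps differences. AMPD2 had 8.75 CPM in the T3 24 h libraries, where BMP4 had 0.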

How the data were processed

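RNA-seq libraries of total RNA from Nthy-ORI cells, depleted of ribosomal RNA and made with a KAPA HyperPrep kit per the labels, were grouped by labelled treatment and time into 4 groups of 2. The authors deposited raw read counts per gene symbol, 1 table per library. The submitters' processing notes name CASAVA 1.7, STAR 2.7, HTSeq, DESeq2 and the build hg38. For the annotation release and strand setting no value is given in the sources used here. Each table's 5 summary rows, 75.6% to 87.1% of its total, stayed out of library sizes and tests. The share in genes was 12.9% and 15.4% in vehicle 6 h and 16.5% and 17.1% in T3 6 h libraries. It was 19.5% and 21.7% in vehicle 24 h and 22.8% and 24.4% in T3 24 h libraries. The share thus ran with both treatment and time, without overlap between groups, and its part in the results was not tested.

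The gene test was that of edgeR 4.0.16 under R 4.3.3 (TMM scaling, filterByExpr with a minimum count of 10, robust quasi-likelihood F test, 1 coefficient per group over all 8 libraries, 4 residual degrees of freedom), with Benjamini-Hochberg adjustment over all 14611 genes tested and a threshold of 0.05. The procedure was tested on simulated counts with changes planted in the T3 6 h group. These counts held no GC trend and no other difference between times, so that test covers neither. CPM values are TMM-scaled. A gene at 0 counts in a group gets a bound computed against 3 counts over that group, and ratios of small counts carry exact 95% binomial intervals. Both the bounds and the intervals reflect counting error alone.

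Gene positions, exon length and GC content came from GENCODE 29 on GRCh38, matched by symbol for 29561 rows, and may not be the annotation used for counting. GC and length trends were removed in an alternative fit through lowess offsets (span 0.3, 12579 genes). Other alternatives were RLE size factors, DESeq2 1.42.0, no filter, only the libraries compared, a replicate block, and leaving out each library. Members, lists and tests were chosen with earlier results of these data known. All 10 members are named; of each wider list, up to 4 genes a comparison with the smallest p among those called were named, provided that they averaged 1 CPM or more and their groups did not overlap; a few genes of the lists are counted but not reported here by name. The markers of thyroid, epithelial, fibroblast, endothelial, immune and C cells were summed per library: epithelial markers came to 404 to 422 CPM in T3 24 h, 476 to 576 in vehicle 24 h, 1125 to 1148 in T3 6 h and 1064 to 1235 in vehicle 6 h libraries, thyroid markers to 151 to 154, 148 to 192, 27.0 to 34.7 and 42.5 to 43.4 CPM in the same groups, and the other 3 lists (endothelial, immune, C cell) to at most 3.84 CPM in any library.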

Additional observations from a re-analysis of the deposited data

Results flagged for a closer look

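No member was called for a difference of its T3 response between 24 h and 6 h, but 8 of the 84 tested genes of the wider lists were (9.52%, against 1.84% of all genes), 7 of them given here, all with a higher log2 fold change of T3 over vehicle at 24 h, as labelled, than at 6 h. The difference was 2.48 for GDF15 (edgeR adjusted p = 0.000401), 2.18 for INHBE (edgeR adjusted p = 0.0194) and 1.95 for FN1 (edgeR adjusted p = 0.000156). It was 1.31 for the integrin gene ITGB8 (edgeR adjusted p = 0.0338), 1.04 for TGFBI (edgeR adjusted p = 0.00197) and 1.00 for CDKN1A (edgeR adjusted p = 0.0269). It was 0.74 for ITGAV (edgeR adjusted p = 0.0278). FN1 and GDF15 were called whichever library was left out. As the 24 h labels go against KLF9 and HR, the size of each difference, and for some, CDKN1A and ITGAV among them, its sign, holds only for the libraries as labelled.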

How the results depend on the processing

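Of the 48 member values, 32 kept their direction in all alternatives run, and 12 of the 21 member calls were kept in all of them. With only the libraries compared, 4 of 8 members, 25 of 77 wider-list genes and 2898 of 12234 genes were called for T3 at 6 h. At 24 h, 11 of 82 wider-list genes and 702 of 14025 genes were called. With GC and length correction, 1 member and 459 of 12579 genes were called at 6 h. At 24 h the calls were 1 member, 3 wider-list genes and 169 of 12579 genes. DESeq2 called 1184 of 30107 genes at 24 h, and without a filter 674 of 30107 genes differed in response.

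Libraries of the same replicate number showed no shared shift within a time (correlation of deviations 0 at 6 h and -0.04 at 24 h). A correlation near 0 cannot exclude that cultures were handled in pairs, and pairing across times was not tested. The replicate block with GC and length correction called 1 member, 5 wider-list genes and 261 of 12579 genes at 6 h. At 24 h it called 1 member, 2 wider-list genes and 52 of 12579 genes, and 157 of 12579 genes were called for the difference of responses. The block alone turned TGFBR2 with vehicle over time to -0.21.

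Directions turned for TGFB1 with vehicle over time, a called fall of 1.05 that became 0.13 and 0.11 with GC correction without and with the block, and otherwise for values near 0. SMAD7 at 6 h was 0.03 without a filter, and 0.20 and 0.19 with GC correction without and with the block; at 24 h it was 0.29 with either, and its difference of responses 0.09 and 0.10. TGFB2 was -0.20 and -0.21 at 6 h and -0.17 and -0.14 at 24 h in the same fits, and -0.08 for the difference without a filter. With vehicle over time, TGFBR2 was -0.09 and -0.33, and TGFBR1 -0.77 and -0.76 in these fits (-0.01 with RLE, -0.00 with DESeq2); with T3 over time TGFBR1 was -0.61 and -0.60. The cause was not tested.

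Leaving out 1 library gave 0 to 3 members, 5 to 15 wider-list genes and 131 to 1681 genes at 6 h; 2 to 4, 11 to 24 and 1128 to 2056 at 24 h; 6 to 7, 60 to 70 and 7228 to 10145 for vehicle over time; 8 to 9, 63 to 76 and 8418 to 10568 for T3 over time; and 0, 2 to 9 and 49 to 750 for the difference of responses. The lone library of a group is then assumed to vary like the others. Left-out libraries also turned values near 0. For T3 over vehicle the ranges were -0.06 to 0.23 (TGFB2), -0.32 to 0.93 (BMP4), -0.02 to 0.20 (TGFBR2) and -0.20 to 0.11 (SMAD7) at 6 h. They were -0.19 to 0.51 (TGFB2), -0.57 to 0.06 (TGFBR2) and -0.03 to 0.17 (SMAD3) at 24 h. Over time they were -0.13 to 0.16 (TGFBR1) and -0.05 to 0.16 (TGFBR2) with vehicle and -0.59 to 0.03 (TGFBR2) with T3. For the difference of responses they were -0.33 to 0.40 (TGFB2), -0.25 to 0.07 (SMAD7) and -0.06 to 0.30 (GREM1). Depth limits BMP4 and FST, whose 6 h levels rest on at most 11 counts a library. It also limits INHBA, with 9 to 17 counts a library at 6 h, and TGFB2, with 10 to 24.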
